A study of Mus musculus with 8 samples.

Results

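The response of mouse colon epithelium to dextran sulfate sodium (DSS) was described in the genotype that served as the study's control. The libraries were chosen by their labels: 2 from untreated and 2 from DSS-treated RORaf/f mice, 4 of the 8 libraries in the series. RORaf/f mice carry Rora alleles flanked by recombination sites and left unrecombined, and are called WT here. The other 4 libraries came from RORaΔIEC mice (KO), in which Rora is deleted in intestinal epithelial cells (IEC). All mice were C57BL/6, and every library held RNA of intestinal epithelial cells shaken off the distal colon after a wash to remove mucus. For 5 days the drinking water of the treated mice held 2% (w/v) DSS, and for the next 3 days it held none, so the DSS libraries show the tissue after early recovery. The labels give neither the driver of the recombinase used in KO nor the age and sex of the mice. Nor do they state whether 2 replicates are 2 mice. P-values therefore reflect the spread among the libraries at hand, which may be technical.

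DSS is a sulfated polysaccharide that damages the lining of the colon, exposes the tissue to gut bacteria and draws in neutrophils and monocytes. The lining renews itself from stem cells at the base of the crypts, whose daughters divide and then mature into absorptive colonocytes, mucus-secreting goblet cells, hormone-secreting enteroendocrine cells and chemosensory tuft cells. During repair, crypts replace lost cells, and the epithelium secretes antimicrobial lectins and reactive oxygen species towards the lumen.

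Totals of expected counts were 20418466 and 18163736 in the untreated libraries and 16529551 and 16879186 in the DSS libraries. The epithelial identity given by the labels was checked first. Epcam, an adhesion protein of epithelia, stood at 1679 and 1601 counts-per-million (CPM) in untreated and 1779 and 1859 CPM in DSS libraries. Krt8, a keratin of simple epithelia, stood at 6474 and 6469 and 5786 and 5826 CPM. The first principal component of the 4 libraries held 71.5% of the variance and separated both DSS libraries from both untreated ones. Rora itself was scarce, at 0.601 and 0.336 CPM untreated and 0.961 and 0.824 CPM after DSS, a log2 difference of 0.90 that did not pass the test (adjusted p = 0.111). In KO it stood at 0.254 and 0.184 CPM untreated and 0.460 and 0.286 CPM after DSS.

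Of 14991 genes tested, 2834 rose after DSS (18.9%) and 2739 fell (18.3%), at an adjusted p under 0.05 in edgeR's quasi-likelihood test. The median log2 fold change over all genes tested was -0.0069. Most changes were small: 70.6% of the 5573 genes called differed by less than 1.5-fold, whereas 522 were at least 2-fold higher and 279 at least 2-fold lower. Replicates were very close, with a common biological coefficient of variation of 3.49%. DESeq2's Wald test called 3409 genes, and leaving out the first DSS library left 3659. In the plot of change against level, the genes with the largest shifts at a mean of at least 5 CPM are named.

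**Figure D1:**
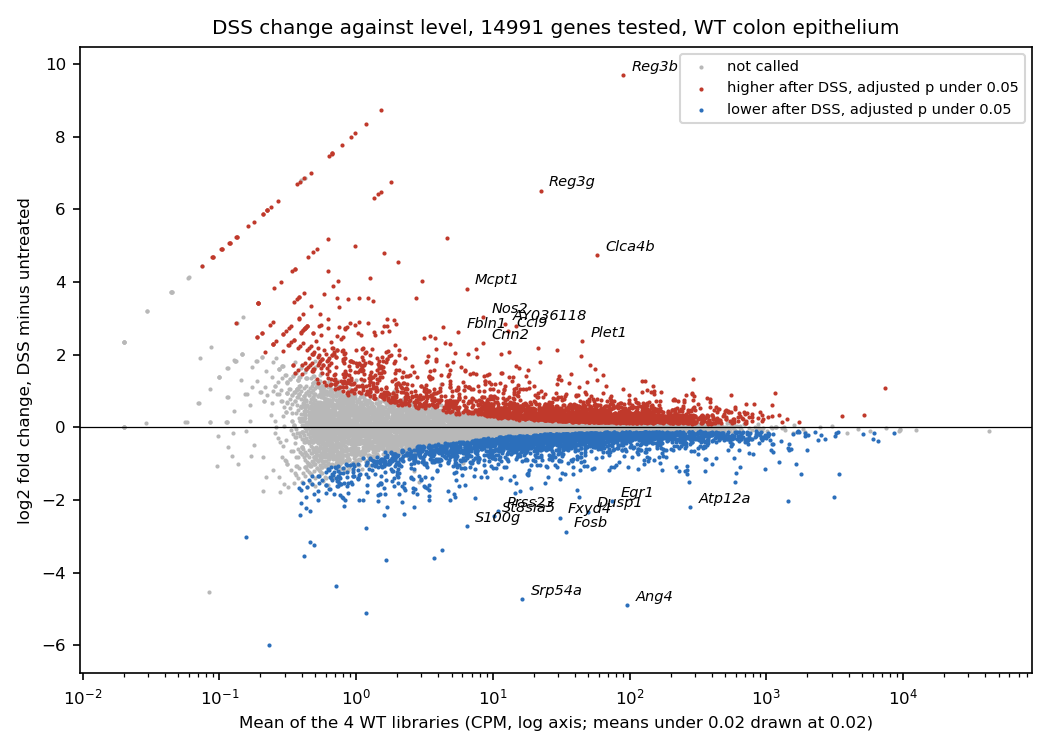
Each point is 1 of the 14991 genes tested, by its mean over the 4 WT libraries (CPM, log axis) and its fitted log2 fold change after DSS; red and blue points passed the test, and the 10 largest rises and 10 largest falls at a mean of at least 5 CPM are named. The slanted rows at low levels on the left are genes with few or no untreated counts, whose fitted change depends on the prior count and is no measured fold.

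Rankings of rises and falls were limited to genes averaging 5 CPM or more whose groups did not overlap. The largest rise belonged to Reg3b, a secreted C-type lectin of the antibacterial defence (chromosome 6, 78370657 to 78373466, plus strand, build mm10). It stood at 0.3504 and 0.05603 CPM in the untreated libraries and at 178 and 182 CPM after DSS. Its log2 fold change was 9.69 ± 0.16 (adjusted p = 2.19e-14). Values after ± are, throughout, the change over the root of its F statistic. They can be smaller than counting error where untreated counts are few, as for Reg3b. Its neighbour Reg3g, a lectin that kills Gram-positive bacteria (chromosome 6, 78466269 to 78468872, minus strand), went from 0.501 and 0.448 CPM to 44.3 and 44.3 CPM (log2 6.52 ± 0.13, adjusted p = 1.12e-13). Both genes were close to silent before DSS and high in both DSS libraries. On the length-scaled transcripts-per-million (TPM) scale, their mean levels after DSS were 413 for Reg3b and 101 for Reg3g, which set them among the moderately abundant transcripts. The fitted change of Reg3b ranged from 8.98 to 11.47 over the alternatives, since it rests on 8 untreated counts.

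The third largest rise was that of Clca4b, a member of the calcium-activated chloride channel regulator family, with 4.45 and 3.81 CPM untreated and 111 and 111 CPM after DSS (log2 4.74 ± 0.08, adjusted p = 3.02e-14). Plet1, a surface protein of epithelial progenitors, went from 15.5 and 13.6 to 76.9 and 74.6 CPM (log2 2.38 ± 0.07, adjusted p = 4.77e-12). Nos2, the inducible nitric oxide synthase, went from 2.002 and 1.68 to 15.6 and 14.7 CPM (log2 3.03 ± 0.13, adjusted p = 4.24e-10). The untreated level of the 3 was highest for Plet1. Ccl9, a chemokine that attracts myeloid cells, rose by 2.66 ± 0.12 on the log2 scale, Fbln1, an extracellular matrix glycoprotein, by 2.61 ± 0.16, and Cnn2, an actin-binding calponin, by 2.32 ± 0.12. Mcpt1, a protease of mucosal mast cells, rose from 0.801 and 0.896 to 11.8 and 12.3 CPM (log2 3.82 ± 0.18, adjusted p = 1.75e-09). The non-coding transcript AY036118 completed the 10, at 1.45 and 4.65 CPM untreated and 25.96 and 17.02 CPM after DSS (log2 2.85 ± 0.82, adjusted p = 0.0144). It varied most between replicates, and it missed the threshold without the first untreated library or without the first DSS library (adjusted p up to 0.135).

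The largest fall was that of Ang4, an antimicrobial ribonuclease of goblet and Paneth cells (chromosome 14, 51763878 to 51773590, minus strand). Its level was 192 and 179 CPM untreated and 6.19 and 6.36 CPM after DSS (log2 -4.89 ± 0.07, adjusted p = 6.87e-15). Srp54a, a subunit of the signal recognition particle, was next, with 33.1 and 30.4 and 1.62 and 0.765 CPM (log2 -4.73, adjusted p = 6.72e-08). Its value is uncertain because it has a near-identical copy, Srp54b, which did not pass the test (log2 0.10, adjusted p = 0.185), and reads can be split between them. With effective-length offsets the Srp54a change was -2.32.

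Fxyd4, a regulator of the sodium pump in aldosterone-responsive cells, dropped from 52.5 and 52.00 to 8.95 and 9.71 CPM (log2 -2.48 ± 0.08, adjusted p = 1.50e-11). Atp12a, the proton-potassium pump of the distal colon, dropped from 450.2 and 461 to 102 and 97.3 CPM (log2 -2.19 ± 0.04, adjusted p = 1.34e-13). S100g, the calcium carrier calbindin of absorptive cells, dropped from 12.9 and 9.53 to 1.502 and 1.88 CPM (log2 -2.72 ± 0.23, adjusted p = 5.62e-07). Their groups lay apart by the rule of the ranking. Over all 14991 genes tested, groups did not overlap in 10521. St8sia5, a sialyltransferase of gangliosides, changed by -2.43 and Prss23, a secreted serine protease, by -2.31. The remaining 3, Fosb, Dusp1 and Egr1, are immediate-early genes and are given with that list. The plot of levels by library shows 20 of the called genes described in the text.

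**Figure D2:**
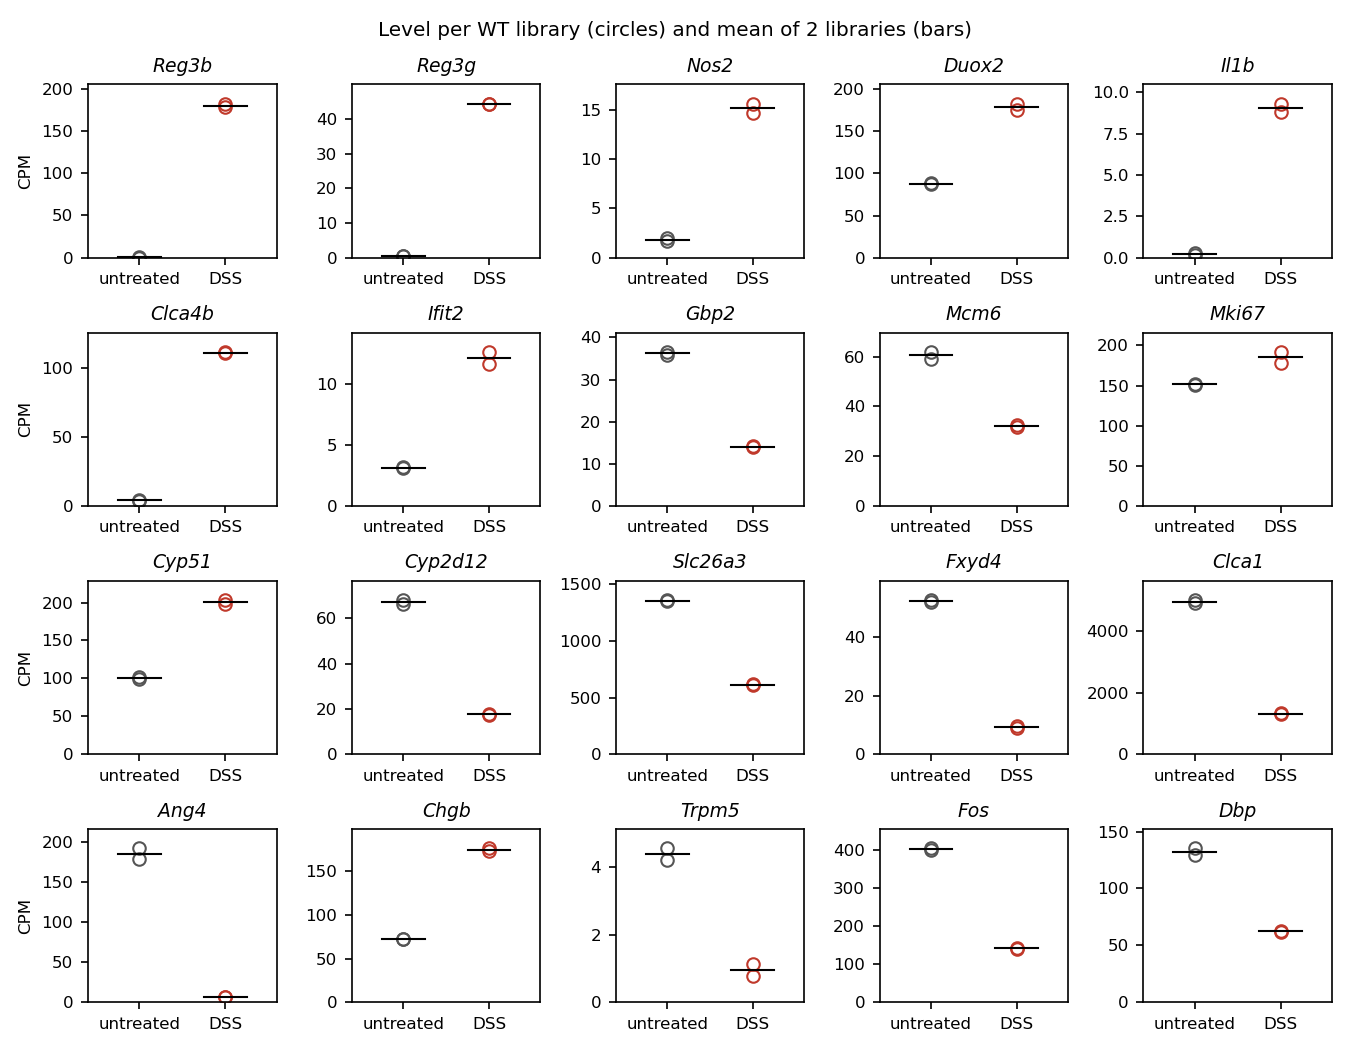
Level of 20 genes in each of the 4 WT libraries (circles, CPM, linear axis from 0), with the mean of 2 libraries as a bar. The genes were picked from those called, so that their groups are apart by choice; the panels show the levels, such as Reg3b at 178 and 182 CPM and Ang4 at 6.19 and 6.36 CPM after DSS.

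Defence genes of the epithelium moved in both directions. Counts of called members in this and later lists stand against 18.9% higher and 18.3% lower over all genes tested. Of 28 antimicrobial and acute phase genes tested, 16 rose and 6 fell, the falls close to that share. In this list 3 of the genes tested were at 0 in both untreated libraries. The same held for 2 genes in each of 4 later lists: NF-kB targets, chemokines, interleukin-22 and STAT3 signalling, and matrix and wound genes. Such genes passed the filter on low counts through other libraries and could not fall, so the counts of rises describe the genes tested. The median log2 fold change of the list was 0.92. Beside the Reg3 lectins and Nos2, the list's rises held the hydrogen peroxide system of the apical membrane. Duox2, the oxidase, went from 87.5 and 88.5 to 183 and 175 CPM (log2 1.02 ± 0.05, adjusted p = 3.91e-09), and its maturation factor Duoxa2 went from 10.01 and 9.53 to 34.7 and 33.8 CPM (log2 1.81 ± 0.08, adjusted p = 1.03e-09). Nox1, the other oxidase of the colon, rose by 0.88 ± 0.07, the bactericidal phospholipase Pla2g2a by 1.46 ± 0.12 and the protease inhibitor Slpi by 0.99 ± 0.13. Pigr, the receptor that carries IgA into the lumen, was abundant before DSS, at 4524 and 4599 CPM, and rose to 5886 and 5780.1 CPM (log2 0.35 ± 0.04). Saa3, an acute phase protein, was scarce at 0.501 and 0.392 CPM untreated and 1.14 and 1.06 CPM after DSS (log2 1.28 ± 0.33, adjusted p = 0.00773). It missed the threshold without the second untreated or the first DSS library (adjusted p up to 0.0631).

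The falls in the same list held other secreted defence proteins beside Ang4. Saa1, a serum amyloid A protein, dropped from 886 and 848 to 307 and 311 CPM (log2 -1.49 ± 0.06, adjusted p = 1.43e-10), a direction opposite to that of Saa3. Wfdc2, a secreted protease inhibitor, dropped from 320.1 and 321 to 142 and 135 CPM (log2 -1.21 ± 0.06), and Itln1, a lectin of goblet cells, from 7.01 and 8.57 to 0.781 and 0.707 CPM (log2 -3.37 ± 0.22, adjusted p = 3.44e-08). The abundant Lypd8, which keeps flagellated bacteria off the surface, dropped only from 9225 and 9050.2 to 8189 and 8116 CPM (log2 -0.16 ± 0.03). The complement genes C3 and Cfb, with log2 values of 0.19 and -0.09, did not pass the test.

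The cytokines Il1b and Tnf rose from very low levels. Il1b, the secreted interleukin-1, stood at 0.3003 and 0.168 CPM untreated and 9.31 and 8.83 CPM after DSS (log2 5.21 ± 0.23, adjusted p = 6.21e-10), and Tnf at 0.751 and 0.392 and 1.803 and 2.18 CPM (log2 1.77 ± 0.34, adjusted p = 0.00105). Cxcl2, a neutrophil attractant, had 1 count in the untreated libraries together and 101 after DSS, a ratio of 114 with a 95% exact counting interval from 19.9 to 4531. Ptgs2, the inducible cyclooxygenase, had 1 count against 90, a ratio of 101 (interval 17.7 to 4043). Cxcl1 had 3 counts in each group and Il6 had none in any of the 4 libraries. Of 29 NF-kB targets tested, 15 rose and 5 fell, with a median of 0.25. The falls were close to the share over all genes (18.3%).

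The 5 members that fell, Nfkbia, Nfkbib, Relb, Traf1 and Tnip1, are inhibitors, a subunit and adaptors of the NF-kB pathway itself. Nfkbia, which holds NF-kB in the cytoplasm, went from 56.9 and 57.8 to 49.6 and 48.6 CPM (log2 -0.22 ± 0.05, adjusted p = 0.003402). Tnip1, a brake on the pathway, went from 135 and 146 to 99.6 and 99.4 CPM (log2 -0.50 ± 0.05, adjusted p = 2.86e-06), and the subunit Relb changed by -0.23. Nfkb1, Nfkb2, Rela and the deubiquitinase Tnfaip3 lay between -0.11 and 0.08 and did not pass the test. Leaving out either untreated library lowered the count of rises from 15 to 9, and leaving out the first untreated or the first DSS library lowered the count of falls from 5 to 3, as did DESeq2's Wald test. A minimum mean of 5 CPM left 9 rises.

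Of 16 chemokine genes tested, 7 rose and 1, Cxcl10, fell, with a median of 0.26. The most abundant members, Ccl28 and Ccl6, at log2 0.04 and -0.04, did not pass the test. Among the members that rose, Ccl9 had the highest level after DSS, at 20.4 and 24.1 CPM against 3.35 and 3.698 CPM untreated. Cxcl16, a membrane-bound chemokine, went from 4.91 and 5.27 to 8.29 and 8.01 CPM (log2 0.68 ± 0.14). The call of Cxcl10 (adjusted p = 0.0495) was lost without the second untreated library, either DSS library or either untreated KO library, with effective-length offsets, with the crossed block and with DESeq2's Wald test. Chemokine falls numbered 2 with no filter, in a fit to the WT libraries alone or without either DSS-treated KO library. A fit to the WT libraries alone left 4 chemokine rises, as did the minimum of 5 CPM. Of 20 genes of interleukin-22 and STAT3 signalling, 10 rose and 5 fell. Its rises included the feedback inhibitor Socs3, from 9.91 and 9.75 to 20.7 and 16.7 CPM (log2 0.93 ± 0.10, adjusted p = 9.37e-06), the fucosyltransferase Fut2 (log2 0.76 ± 0.04) and the oncostatin receptor Osmr (log2 3.53 ± 0.46). The kinase Pim3 fell (log2 -0.32 ± 0.05), and Stat3 did not pass the test (log2 0.08). DESeq2's Wald test left 3 of the 5 falls.

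Markers of blood cells moved beside these cytokine genes. Of 18 neutrophil markers, 15 were tested, of which 12 rose and 1 fell. Among those tested, 5 were at 0 in both untreated libraries and passed the filter on low counts through other libraries, so that the count describes the genes tested and not the whole list. S100a8, an abundant neutrophil protein, had 0 untreated counts and 62 after DSS, at least 23-fold higher against a floor of 3 counts over the group. Csf3r, the receptor for the neutrophil growth factor, had 1 count against 97 (ratio 109, interval 19.1 to 4354). The summed level of the list was 259 and 269 CPM untreated and 472 and 480.4 CPM after DSS, and most of it was carried by Cd177 and Ly6g. Cd177 went from 159 and 171 to 418 and 421 CPM (log2 1.34 ± 0.05), whereas Ly6g went from 99.2 and 97.2 to 42.2 and 44.7 CPM (log2 -1.17 ± 0.06). Both are markers of mouse neutrophils, yet both were high in untreated libraries in which S100a8 was at 0, and they moved in opposite directions. A fit to the WT libraries alone called 6 neutrophil rises and the minimum of 5 CPM left 4.

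Of 17 macrophage and monocyte markers, 14 rose and 1 fell, with a median of 1.78 and summed levels of 65.7 and 67.7 CPM untreated and 93.9 and 93.0 CPM after DSS. Among them, Lyz2 went from 2.95 and 2.69 to 9.31 and 8.54 CPM and the integrin subunit Itgam from 1.602 and 1.91 to 5.47 and 4.89 CPM. The minimum of 5 CPM left 3 of these rises. Of 10 B and plasma cell markers, 7 rose, with sums of 5.11 and 4.99 against 13.5 and 14.2 CPM. That count fell to 3 without the first untreated library, to 4 without the second untreated or the first DSS library, to 2 with DESeq2's Wald test and to 0 with the minimum of 5 CPM. Of 11 T and NK cell markers, 1 rose, Cd7, and its call was lost whichever of the 4 WT libraries was left out. Hba-a1, a haemoglobin gene of red cells, went from 16.2 and 18.04 to 45.2 and 40.5 CPM (log2 1.33 ± 0.08), and 5 of the 6 red cell markers rose. Of 5 dendritic and mast cell markers, Itgax, Mcpt1 and Mcpt2 rose, and the minimum of 5 CPM left none of these. Of 3 neuron and glia markers, only Ret rose, and the median of the list was -0.515. Fibroblast markers held 1 rise and 1 fall of 8, each below its share over all genes. Of 2 endothelial markers 1 fell, and the single smooth muscle marker, Tagln, did not pass the test. The endothelial call, that of Pecam1, was lost without the first untreated or the first DSS library. In bulk samples such as these, more cells of a type and more RNA per cell cannot be told apart. The part of these cells in the rises of cytokine, chemokine and protease genes was not tested.

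**Figure D3:**
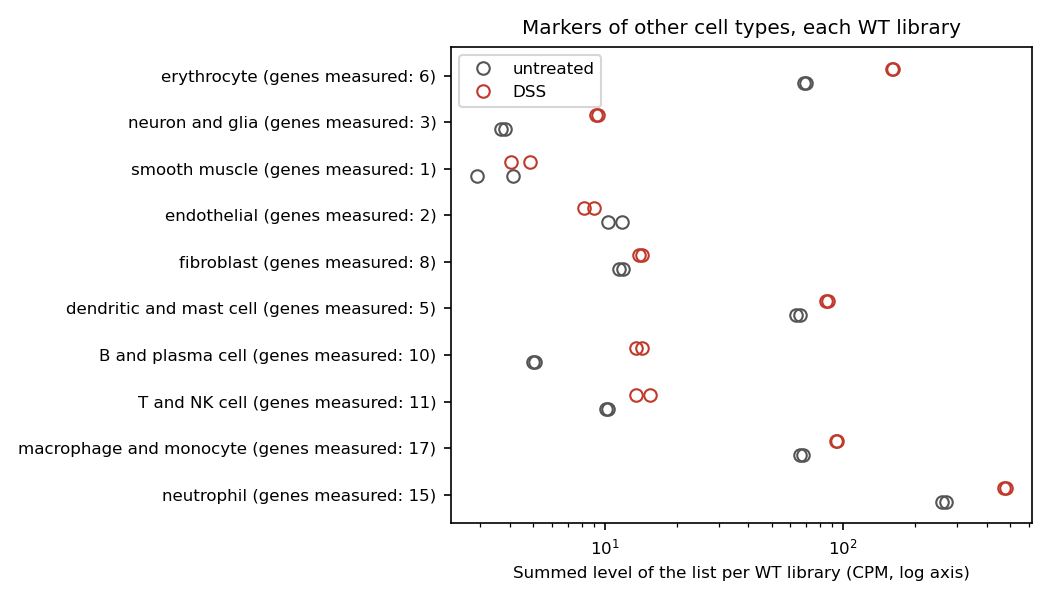
Summed CPM of each marker list of other cell types in each WT library (log axis; grey untreated, red DSS). Both DSS sums lie above both untreated sums in every list but the endothelial one, where they lie below, and the smooth muscle one, where the groups overlap. A sum can rest on 1 member. The median log2 fold change was -0.515 for neuron and glia markers, where only Ret rose. It was 0.064 for fibroblast markers, where only Fn1 rose and Dcn fell.

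Of 32 genes of the classical interferon-stimulated set, 20 rose and 1 fell, with a median of 0.46. Ifit2, which blocks translation of foreign RNA, went from 3.203 and 3.08 to 11.7 and 12.7 CPM (log2 1.95 ± 0.13, adjusted p = 7.19e-08). Oas2, a sensor of double-stranded RNA, went from 2.603 and 2.58 to 5.95 and 5.95 CPM (log2 1.20 ± 0.16, adjusted p = 5.99e-05), and Oasl2 from 31.2 and 29.8 to 48.97 and 46.4 CPM (log2 0.64 ± 0.06, adjusted p = 1.63e-06). The transcription factor subunits Stat2 and Irf9 rose by 0.44 ± 0.06 and 0.36 ± 0.06. Irf7, at -0.09, did not pass the test, and Ifi27 was the member that fell (log2 -0.43 ± 0.07).

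Of 20 interferon-gamma responsive genes, mostly GTPases that attack vacuoles holding microbes, 1 rose, 8 fell and 11 were not called, with a median of -0.40. Gbp2, a guanylate-binding protein, dropped from 36.5 and 35.9 to 14.2 and 13.95 CPM (log2 -1.36 ± 0.07, adjusted p = 2.38e-09). Iigp1, an immunity-related GTPase, dropped from 5.76 and 5.099 to 2.28 and 2.41 CPM (log2 -1.21 ± 0.18, adjusted p = 1.10e-04), and Gbp6 changed by -0.71. The rise was that of Ido1, the tryptophan-degrading dioxygenase, from 0.751 and 1.177 to 5.17 and 5.48 CPM (log2 2.47 ± 0.22, adjusted p = 8.82e-07). The count of falls was 5 without the second untreated library or with effective-length offsets, and 4 without the second DSS library. Of 27 genes of MHC class I presentation, 9 rose, B2m among them (229 and 221 to 308 and 321 CPM, log2 0.48 ± 0.05), and 2 fell. Whichever WT library was left out, 1 or 0 of the class I falls were called, as with effective-length offsets and with DESeq2's Wald test. Of 10 MHC class II genes, 3 rose, the antigen-presenting chain H2-Eb1 among them (log2 0.64 ± 0.14), and 1, the protease Ctss, fell (log2 -0.39 ± 0.05). DESeq2's Wald test left 1 class II rise.

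The promoters of both interferon sets were searched for 1 motif. Promoter windows from 250 bases before to 50 bases after each start site (RefSeq, GRCm38.p6) were matched by symbol for 23 genes of the stimulated set and 13 of the gamma set. The core of the interferon-stimulated response element, GAAANNGAAA on either strand, was present in 14 of 26 windows of the first set (53.8%) and in 11 of 15 windows of the second (73.3%), against 3.44% of all 32851 windows. The windows of 2 genes that rose, Ifit1 (log2 0.93 ± 0.11) and Stat2, and of Gbp2, which fell, are printed with the matches in capitals to show that the motif is in genes of either direction.
Ifit1 (chr19:34640639-34640938, plus strand): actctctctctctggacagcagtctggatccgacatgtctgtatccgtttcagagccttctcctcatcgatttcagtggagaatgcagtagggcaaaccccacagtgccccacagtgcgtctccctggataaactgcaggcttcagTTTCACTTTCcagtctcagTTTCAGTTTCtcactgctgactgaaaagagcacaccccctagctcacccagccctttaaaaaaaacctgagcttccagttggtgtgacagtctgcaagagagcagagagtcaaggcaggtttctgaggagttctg
Stat2 (chr10:128270248-128270547, plus strand): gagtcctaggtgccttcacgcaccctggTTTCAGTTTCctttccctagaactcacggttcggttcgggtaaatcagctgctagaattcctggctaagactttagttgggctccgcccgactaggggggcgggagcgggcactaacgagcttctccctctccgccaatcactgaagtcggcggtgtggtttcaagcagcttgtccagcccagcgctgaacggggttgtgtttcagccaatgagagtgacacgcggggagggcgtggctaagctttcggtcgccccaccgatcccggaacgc
Gbp2 (chr3:142620413-142620712, plus strand): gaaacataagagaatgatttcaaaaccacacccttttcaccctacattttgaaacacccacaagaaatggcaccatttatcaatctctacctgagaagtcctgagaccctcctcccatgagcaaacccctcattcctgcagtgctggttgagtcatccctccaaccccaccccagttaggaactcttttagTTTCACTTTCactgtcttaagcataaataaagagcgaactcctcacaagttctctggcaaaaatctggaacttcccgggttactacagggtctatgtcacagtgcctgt
A match is a run of letters and not a shown binding site. For genes of cholesterol synthesis, the sterol element core CACCCCAC was found in 2 of 20 windows (10%), against 2.87% of all windows. For genes of interleukin-22 and STAT3 signalling, TTCNNNGAA was found in 2 of 22 windows (9.09%), one of them that of Reg3b, against 8.30% of all windows.

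Most genes of DNA replication fell, while more genes of mitosis rose than fell. Of 31 replication genes, none rose and 27 fell, with a median of -0.69. Mcm6, a subunit of the replicative helicase, dropped from 61.9 and 59.1 to 32.4 and 31.8 CPM (log2 -0.91 ± 0.06, adjusted p = 3.39e-08). Uhrf1, which carries DNA methylation through replication, dropped from 33.5 and 34.5 to 16.2 and 15.5 CPM (log2 -1.10 ± 0.07, adjusted p = 5.89e-08). The sliding clamp Pcna changed by -0.69, and E2f1, the transcription factor of S phase entry, by -1.08.

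Of 26 mitosis genes, 11 rose and 2 fell, with a median of 0.13. Kif23, a motor of cytokinesis, went from 23.6 and 24.9 to 32.8 and 32.97 CPM (log2 0.44 ± 0.06, adjusted p = 1.04e-04), and Ccnb1, the mitotic cyclin, changed by 0.41 ± 0.08. Mki67, the common proliferation marker, stood at 151 and 152 CPM untreated and 192 and 178 CPM after DSS (log2 0.29 ± 0.06, adjusted p = 0.00281, and 0.0534 without the first DSS library). Cenpf, of the kinetochore, had a log2 value of 0.41, which turned to -0.19 with effective-length offsets. Without the second untreated library 7 mitosis genes rose, as with effective-length offsets. The 2 falls, Foxm1 and Aurkb, became 1 or 0 whichever WT library or untreated KO library was left out, 1 with either replicate block and 0 with DESeq2's Wald test.

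Genes of the stem cell and lower crypt programme split. Of 17 tested, 5 rose and 8 fell. Among the falls, Myc dropped from 41.3 and 39.3 to 20.7 and 21.5 CPM (log2 -0.93 ± 0.07, adjusted p = 1.25e-07), Ascl2, the stem cell transcription factor, from 8.71 and 8.07 to 4.75 and 4.53 CPM (log2 -0.86 ± 0.16), and Axin2 and Rnf43, which restrain Wnt signalling, changed by -0.57 and -0.53. Lgr5, the receptor that marks crypt stem cells, went from 17.6 and 16.1 to 12.1 and 14.1 CPM (log2 -0.36 ± 0.10, adjusted p = 0.0102). That call was lost without the first untreated or the first DSS library, with effective-length offsets and with DESeq2's Wald test (adjusted p up to 0.1696). Prom1, a surface protein of crypt cells, went the other way, from 180.0 and 184 to 336 and 335 CPM (log2 0.88 ± 0.04, adjusted p = 8.62e-10), as did the hyaluronan receptor Cd44 (log2 0.65 ± 0.08). Without the first untreated or the first DSS library, 3 of the 5 rises were called, and effective-length offsets left 5 of the 8 falls.

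Genes known from the fetal-like state of repairing epithelium were likewise mixed, with 11 rises and 7 falls among 25 and a median of 0.16. Ly6a, the surface protein Sca-1 that marks this state, went from 126 and 125 to 211 and 208 CPM (log2 0.74 ± 0.05, adjusted p = 2.88e-08), and Anxa5, a phosphatidylserine-binding annexin, changed by 0.88 ± 0.06. Sprr1a, a cross-linked envelope protein, went from 3.003 and 3.42 to 8.95 and 9.83 CPM (log2 1.55 ± 0.14). Clu, which marks revival stem cells, dropped from 9.36 and 9.25 to 4.81 and 4.71 CPM (log2 -0.97 ± 0.13, adjusted p = 6.13e-05), and the cyclin Ccnd2 from 351 and 364 to 174 and 166 CPM (log2 -1.07 ± 0.06, adjusted p = 7.91e-09). The YAP target Cyr61, at log2 -0.30, did not pass the test, and Ctgf had 3 counts in each group.

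Among 14 EGF family ligands and receptors, 5 rose and 3 fell, the falls close to the share over all genes (18.3%). The receptor Egfr went from 36.99 and 38.6 to 56.5 and 51.5 CPM (log2 0.52 ± 0.06, adjusted p = 2.62e-05), while the ligands Areg and Hbegf fell, with log2 values of -0.56 ± 0.07 and -0.85 ± 0.07. Of 19 matrix and wound genes, 13 rose and 2 fell, with a median of 0.34. Itga2, the collagen-binding integrin subunit, went from 31.2 and 38.2 to 95.2 and 91.6 CPM (log2 1.43 ± 0.09, adjusted p = 4.42e-08), and the crosslinking enzyme Tgm2 from 5.71 and 6.44 to 18.1 and 16.1 CPM (log2 1.49 ± 0.12). The protease inhibitor Timp3 dropped from 16.3 and 17.03 to 6.25 and 6.300 CPM (log2 -1.41 ± 0.10, adjusted p = 1.00e-07). Of 16 tight junction genes, 4 rose and 2 fell, counts close to the shares over all genes (18.9% and 18.3%). Cldn15, a cation pore, changed by 0.65 ± 0.05, Cldn4 by 0.46 ± 0.07 and Cldn8, a sealing claudin of the distal colon, by -0.41 ± 0.05. Whichever WT library or untreated KO library was left out, 1 of the 2 tight junction falls was called, as with effective-length offsets. Of 10 keratins 2 rose and 4 fell, and 2 of those falls were called without the second untreated library, without the first DSS library or by DESeq2's Wald test.

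Genes of absorptive cells moved in both directions, with more falls than rises. Of 27 genes of colonocyte maturity, 17 fell and 7 rose, with a median of -0.23. The chloride-bicarbonate exchanger Slc26a3 dropped from 1359 and 1348 to 617 and 610.0 CPM (log2 -1.14 ± 0.04, adjusted p = 5.94e-11), the sodium-proton exchanger Slc9a3 from 291 and 304 to 142 and 139 CPM (log2 -1.08 ± 0.05, adjusted p = 1.26e-09) and the water channel Aqp8 from 509 and 495 to 216 and 217 CPM (log2 -1.21 ± 0.05, adjusted p = 2.74e-10). In each, the higher DSS library was below the lower untreated library. Groups did not overlap in 5570 of the 5573 genes called. Carbonic anhydrases, which supply protons and bicarbonate, moved in both directions. The 3 in the list fell, with log2 values of -1.25 for Car4, -0.94 for Car2 and -0.60 for Car1. Car12, which is outside the list and was singled out after its values were seen, rose from 24.4 and 23.3 to 77.2 and 79.4 CPM (log2 1.71 ± 0.06, adjusted p = 5.94e-11). The phosphate carrier Slc20a1 changed by -1.09. Krt20, the keratin of surface cells, rose instead, from 670.4 and 681 to 828 and 825 CPM (log2 0.29 ± 0.04, adjusted p = 2.59e-05). So did the water channel Aqp4, from 555 and 558 to 881 and 863 CPM (log2 0.65 ± 0.04), and the surface protein Emp1, from 299 and 296 to 489 and 476 CPM (log2 0.70 ± 0.04).

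Most genes of sodium uptake under aldosterone, a hallmark of the distal colon, fell. Of 15 genes, 10 fell and 2 rose, with a median of -0.23. The 3 subunits of the epithelial sodium channel all fell: Scnn1g from 7.66 and 8.46 to 2.76 and 1.77 CPM (log2 -1.83 ± 0.18), Scnn1b from 12.5 and 13.4 to 4.27 and 5.83 CPM (log2 -1.35 ± 0.15) and Scnn1a from 218 and 234 to 149.6 and 143 CPM (log2 -0.63 ± 0.05). The kinase Sgk1, which keeps the channel at the surface, changed by -0.54 ± 0.04. The 2 rises were those of the potassium channel Kcnk1 and the protease Prss8, and 1 of them was called whichever WT library or untreated KO library was left out, with no filter, with effective-length offsets or by DESeq2's Wald test. Of 15 position genes of the colon, 8 fell and 2 rose. Among the falls, Hoxd13 stood at 106 and 102 and 45.7 and 52.5 CPM (log2 -1.08 ± 0.06, adjusted p = 6.03e-09) and Hoxb13 at 389.5 and 397 and 236 and 240.0 CPM (log2 -0.72 ± 0.05). Hoxb7 fell from 11 counts to 1 (ratio 0.102, interval 0.00238 to 0.704), a call lost without the first untreated library, without either DSS library, without either untreated KO library and with effective-length offsets. The rises were those of Hoxa11, from 5.66 and 3.698 to 10.4 and 14.8 CPM (log2 1.42 ± 0.19, adjusted p = 4.39e-05), and Hoxa9, from 63.5 and 63.03 to 89.5 and 95.6 CPM (log2 0.55 ± 0.06). Without the first DSS library, or with the minimum of 5 CPM, 5 position genes fell.

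Goblet cell genes moved in both directions. Of 22 tested, 8 rose and 10 fell. Among the falls were secreted components of the mucus: Clca1, a metalloprotease of the mucus layer, from 5005 and 4919.5 to 1326 and 1299 CPM (log2 -1.92 ± 0.04, adjusted p = 4.07e-14), Fcgbp, which binds to the mucin net, from 4625 and 5020.5 to 2031 and 1931 CPM (log2 -1.28 ± 0.04, adjusted p = 5.94e-11), and Zg16, a lectin that aggregates bacteria, from 2267 and 2161 to 1091 and 1111 CPM (log2 -1.01 ± 0.05, adjusted p = 1.51e-09). Among the rises were genes for folding and glycosylating mucin: Agr2, a disulfide isomerase needed for mucin folding, from 819 and 769 to 1502 and 1575 CPM (log2 0.95 ± 0.05, adjusted p = 2.93e-09), and the glycosyltransferases C1galt1 and Galnt12, by 0.75 ± 0.04 and 0.63 ± 0.05. The goblet cell transcription factor Spdef changed by 0.37 ± 0.05, while Atoh1, which specifies secretory cells, did not pass the test (log2 0.06). Muc2, the gel-forming mucin, stood at 3346 and 3498 CPM untreated and 3219 and 2965 CPM after DSS (log2 -0.15 ± 0.05, adjusted p = 0.03704). That small fall was lost without either untreated library, without the second DSS library, without either untreated KO library, with the crossed replicate block and with effective-length offsets, where it was -0.0031. The sum over the list was 20990 and 21180 CPM untreated and 13170 and 12950 CPM after DSS. Most of that drop lay in Clca1, Fcgbp and Zg16, and the median log2 fold change of the list was -0.069.

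Of 17 enteroendocrine genes, 11 rose and 1 fell, with a median of 0.40. Chgb, a protein of hormone granules, went from 72.3 and 72.8 to 176 and 173 CPM (log2 1.27 ± 0.05, adjusted p = 7.08e-11), and Gcg, which encodes glucagon-like peptides, from 22.3 and 25.2 to 45.8 and 43.4 CPM (log2 0.91 ± 0.07, adjusted p = 3.94e-07). Neurog3, which commits cells to the lineage, went from 0.851 and 1.12 to 2.94 and 2.94 CPM (log2 1.58 ± 0.24, adjusted p = 1.71e-04). Sst, the hormone of D cells, dropped from 2.603 and 3.08 to 0.841 and 1.001 CPM (log2 -1.61 ± 0.27, adjusted p = 3.19e-04). Without the first DSS library 7 enteroendocrine genes rose, as with the minimum of 5 CPM or DESeq2's Wald test, and that minimum removed Sst.

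Of 12 tuft cell genes, none rose, 4 fell and 8 were not called, with a median of -0.47. Trpm5, the cation channel of taste and tuft cells, dropped from 4.204 and 4.54 to 1.14 and 0.765 CPM (log2 -2.19 ± 0.24, adjusted p = 9.68e-06). Dclk1, the kinase used to mark tuft cells, dropped from 3.45 and 3.59 to 1.32 and 0.824 CPM (log2 -1.71 ± 0.32, adjusted p = 7.85e-04). Pou2f3, the transcription factor that specifies them, had a log2 value of -1.01 that did not pass the test (adjusted p = 0.178). All 4 called tuft genes were under the minimum of 5 CPM and were lost with it. Of 14 general epithelial genes, 4 rose and 5 fell, with log2 values from -0.52 for Phgr1 to 0.40 for Cdx2, an intestinal transcription factor. Their falls numbered 3 whichever WT library or untreated KO library was left out, and 8 without either DSS-treated KO library.

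**Figure D4:**
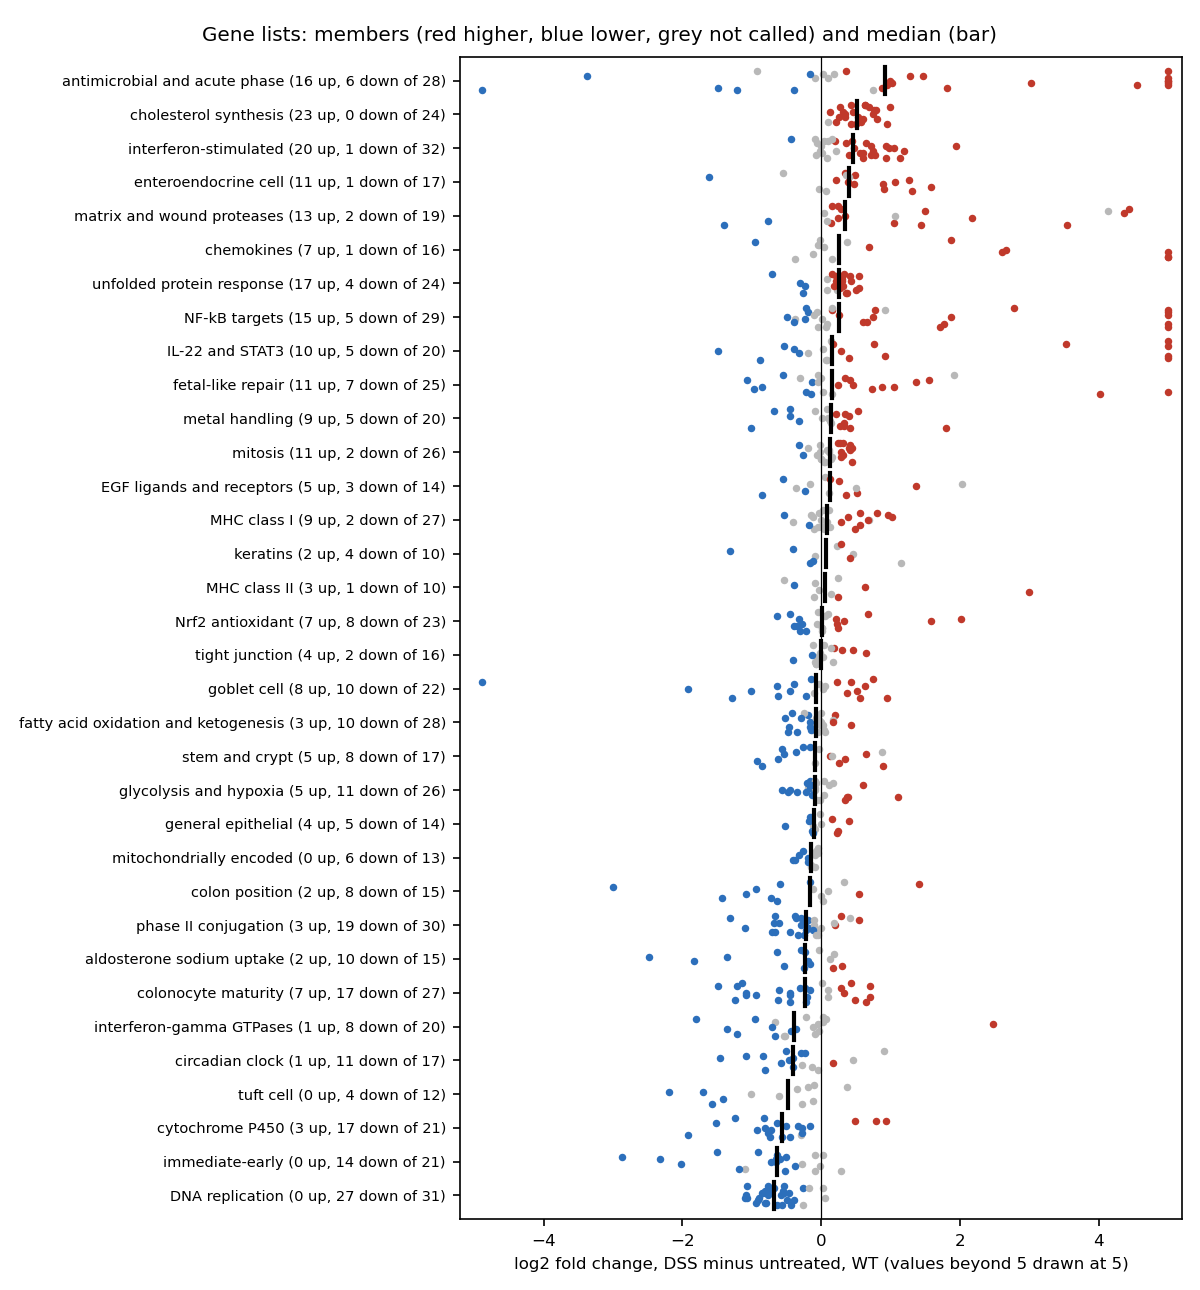
Log2 fold changes after DSS of the members of 34 gene lists in WT (red higher, blue lower, grey not called) with the median of each list as a black bar; counts stand beside the names, and values beyond 5 are drawn at 5. The medians run from -0.69 for DNA replication to 0.92 for the antimicrobial list, against -0.0069 over all genes tested.

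Cholesterol synthesis had the largest share of rises of the 34 lists: 23 of 24 genes rose, none fell, and the median was 0.51. Cyp51, the sterol demethylase, went from 99.7 and 101 to 203 and 198 CPM (log2 1.00 ± 0.04, adjusted p = 5.43e-10). Hmgcs1, which opens the pathway, went from 273 and 268 to 466 and 477 CPM (log2 0.80 ± 0.04, adjusted p = 1.82e-09). Ebp, the one gene not called, had a log2 value of 0.10.

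Most genes that metabolise xenobiotics fell. Of 21 cytochrome P450 genes, 17 fell and 3 rose, with a median of -0.57. Cyp2d12 dropped from 68.02 and 66.2 to 17.9 and 17.4 CPM (log2 -1.93 ± 0.07, adjusted p = 8.13e-11) and Cyp2d34 from 234 and 235 to 132 and 136 CPM (log2 -0.81 ± 0.05), both members of a family of close copies among which reads can be split. Cyp3a13, of a smaller family, changed by -0.83 ± 0.05. The rises were those of Cyp4f40 (log2 0.93 ± 0.06), Cyp2c65 (log2 0.79 ± 0.05) and Cyp2j6 (log2 0.48 ± 0.05).

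Of 30 conjugating enzymes, 19 fell and 3 rose, with a median of -0.23. The glutathione transferase Gstm1 dropped from 363 and 359.9 to 235 and 222 CPM (log2 -0.66 ± 0.04, adjusted p = 4.30e-08) and Gsta4 from 53.96 and 51.04 to 26.02 and 23.2 CPM (log2 -1.09 ± 0.07, adjusted p = 5.12e-08). Without the first untreated library 12 of these genes fell, and without the first DSS library 11. The rises came down from 3 to 1 without the second untreated or the second DSS library, with effective-length offsets and with DESeq2's Wald test.

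Redox genes of the Nrf2 programme were divided, with 7 rises and 8 falls among 23. Me1, the malic enzyme that makes NADPH, went from 2.903 and 2.35 to 9.61 and 11.7 CPM (log2 2.01 ± 0.15, adjusted p = 2.36e-07), and the cystine carrier Slc7a11 from 2.55 and 2.297 to 7.33 and 7.301 CPM (log2 1.59 ± 0.17). Prdx6, a peroxiredoxin, dropped from 2417 and 2392 to 1538 and 1565 CPM (log2 -0.63 ± 0.04, adjusted p = 4.65e-08), and Nqo1, the textbook target of the pathway, changed by -0.28. Of 20 metal handling genes, 9 rose and 5 fell, led by the reductase Steap4 (2.302 and 2.24 to 8.53 and 7.36 CPM, log2 1.80 ± 0.16) and, downwards, by the manganese exporter Slc30a10 (log2 -1.01 ± 0.11).

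Of 28 genes of fatty acid oxidation and ketogenesis, 10 fell and 3 rose, with a median of -0.073. The carnitine carrier Slc25a20 changed by -0.47 ± 0.05 and Ppargc1a, a coactivator of mitochondrial genes, by -0.47 ± 0.06. Without the first untreated or the first DSS library 6 of these genes fell. Of 26 glycolysis and hypoxia genes, 11 fell and 5 rose, the rises close to the share over all genes (18.9%). Slc16a3, the lactate exporter, rose from 4.204 and 4.26 to 9.19 and 9.13 CPM (log2 1.11 ± 0.13, adjusted p = 1.22e-05), and Vegfa dropped from 71.8 and 74.6 to 50.5 and 48.5 CPM (log2 -0.56 ± 0.05, adjusted p = 1.52e-06). The count of falls was 6 without the second untreated or the first DSS library and 7 without the other untreated or the other DSS library. Of 13 mitochondrially encoded genes, 6 fell and none rose. Their call count was 3 without the first DSS library, and 10 with no filter or without either DSS-treated KO library.

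Of 24 genes of the unfolded protein response, 17 rose and 4 fell, with a median of 0.26. The falls were close to the share over all genes (18.3%). Pdia3, a disulfide isomerase, went from 496 and 460.3 to 695 and 705 CPM (log2 0.55 ± 0.04, adjusted p = 2.99e-07), Hsp90b1 from 371 and 368 to 516 and 527 CPM (log2 0.50 ± 0.04) and Hspa5, the chaperone BiP, from 331 and 326 to 407 and 420.2 CPM (log2 0.33 ± 0.04). Among the 4 falls, Ddit3, which encodes the pro-apoptotic factor CHOP, dropped from 14.1 and 15.1 to 8.89 and 8.89 CPM (log2 -0.71 ± 0.10, adjusted p = 6.55e-05), and Atf4 changed by -0.26.

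Most immediate-early genes, which respond within minutes to growth factors and to handling of tissue, fell after DSS. Of 21 genes, none rose and 14 fell, with a median of -0.64. Fos, a subunit of AP-1, dropped from 398 and 403 to 141 and 143 CPM (log2 -1.50 ± 0.04, adjusted p = 3.32e-12), Fosb from 59.3 and 60.6 to 7.63 and 8.77 CPM (log2 -2.87 ± 0.07, adjusted p = 2.39e-12) and Egr1, a zinc finger factor, from 119 and 119 to 29.8 and 29.03 CPM (log2 -2.02 ± 0.05, adjusted p = 2.67e-12). The phosphatase Dusp1, which shuts off MAP kinases, dropped from 83.6 and 81.6 to 15.6 and 17.5 CPM (log2 -2.32 ± 0.06, adjusted p = 3.19e-12). The heat shock genes Hspa1a and Hspa1b, at 0.29 and 0.03, did not pass the test.

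Most clock genes fell. Of 17, 11 fell and 1, Clock, rose, with a median of -0.40. Dbp, an output gene of the clock, dropped from 135 and 129 to 61.5 and 63.1 CPM (log2 -1.08 ± 0.06, adjusted p = 9.73e-09), Ciart from 19.5 and 19.8 to 7.33 and 6.95 CPM (log2 -1.46 ± 0.10, adjusted p = 4.57e-08) and the repressor Nr1d1 from 166 and 175 to 98.5 and 95.3 CPM (log2 -0.82 ± 0.05, adjusted p = 1.23e-08). Arntl, the activator that peaks opposite to these, did not pass the test (log2 -0.04). The call of Clock was lost whichever WT library or untreated KO library was left out, with effective-length offsets, with the crossed block and with DESeq2's Wald test. The labels give no time of day, so DSS and the hour of collection cannot be told apart for these genes.

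The same DSS course in KO gave the comparison that shows where the WT response differed. The difference between the 2 DSS changes (KO minus WT, the interaction) was called for 3208 of 14991 genes (21.4%). Of these, 1613 had a higher DSS change in KO and 1595 a lower one, and list counts by direction stand against these. For replication, 26 of 31 genes had a higher DSS change in KO and none a lower one: the median was -0.072 in KO against -0.69 in WT. For mitosis, 24 of 26 were higher in KO and none lower, with a median of 0.80 against 0.13. Whichever direction a gene took, its change in these 2 lists lay lower in WT wherever the interaction was called.

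For cholesterol synthesis, 17 of 24 genes had a lower DSS change in KO and 1 a higher one, with a median of 0.26 against 0.51. Summed levels of the list were 2444 and 2459 CPM in untreated WT and 3400 and 3373 CPM in untreated KO. After DSS they were 3500 and 3501 CPM in WT and 3739 and 3773 CPM in KO, so the genotypes differed more before DSS than after it. For Cyp51 the log2 change was 0.39 in KO (interaction -0.61, adjusted p = 7.55e-06). For colonocyte maturity, 14 of 27 were lower in KO and 2 higher (median -0.74 against -0.23), and for goblet cells 12 of 22 were lower and 1 higher. Muc2 changed by -1.15 in KO (interaction -1.01, adjusted p = 4.02e-07). For glycolysis and hypoxia, 18 of 26 were higher and 1 lower, with a median of 0.45 in KO against -0.093 in WT.

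Among the inflammatory genes, Il1b changed by 8.51 in KO (interaction 3.30, adjusted p = 0.00239), Tnf by 4.01 (interaction 2.24, adjusted p = 0.00847) and Nfkbia by 0.79 (interaction 1.01, adjusted p = 3.44e-07). Reg3b went against them, with a smaller change in KO, 6.40 (interaction -3.28, adjusted p = 4.75e-04). Its untreated counts were 7 and 1 in WT and 16 and 29 in KO, so the size of this difference rests on few counts. The mean level of Reg3b after DSS was 180 CPM in WT and 119 CPM in KO. For the immediate-early list, 7 of 21 genes were higher in KO and 3 lower, the latter close to the share over all genes. For Fos the interaction was 0.37 (adjusted p = 4.85e-04). Effective-length offsets called 1794 interactions and DESeq2's Wald test 1684. The interaction count was 1914 without the first untreated WT library, 1903 without the first DSS-treated WT library, and 1891 and 1985 without either untreated KO library.

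**Figure D5:**
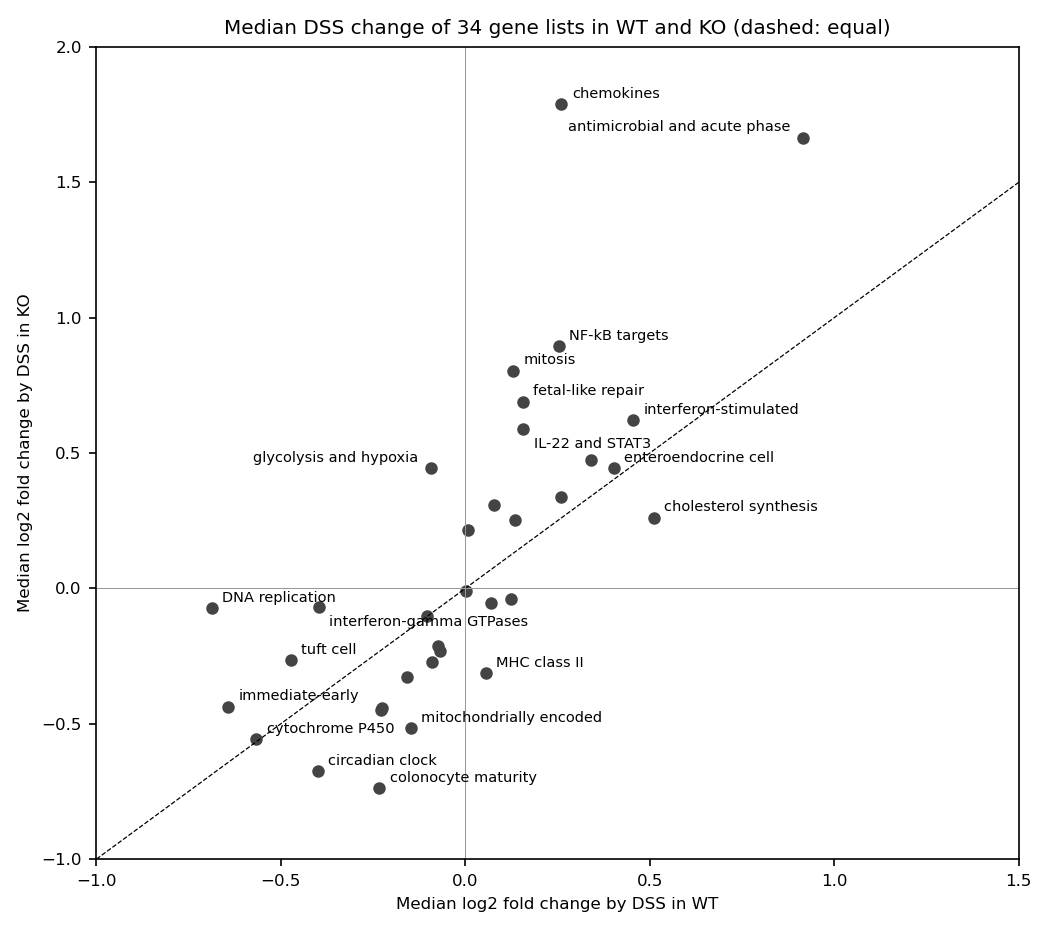
Median log2 fold change after DSS of 34 gene lists in WT (horizontal) and KO (vertical); the dashed line marks equal medians. Replication lies at -0.69 in WT and -0.072 in KO, mitosis at 0.13 and 0.80, and cholesterol synthesis at 0.51 and 0.26.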

How the data were processed

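RNA sequencing of distal colon epithelial cells gave 8 libraries, 2 for each of untreated and DSS-treated WT and KO. The deposited tables hold expected counts per gene, estimated by the authors with RSEM, per the file headers, which share reads that map to several genes. The deposited TPM values were scaled by effective gene length, per the file headers. Tools listed in the submitters' processing notes are the aligner STAR (2.5.3a), the quantifier RSEM (1.3.0) and DESeq2 (1.18.1), with mm10 as the build. Annotation release and strand setting are not given in the sources used here.

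Analysis in R 4.3.3 started from rounded expected counts. The default filterByExpr rule kept 14991 of 53379 genes. Libraries were scaled by TMM factors in edgeR 4.0.16, and all 8 libraries entered 1 quasi-likelihood fit with 4 group means and 4 residual degrees of freedom, so that the groups share an estimate of the spread. P-values are two-sided, with Benjamini-Hochberg adjustment over all genes tested and a threshold of 0.05. CPM values are TMM-scaled, and TPM values served only to compare levels between genes. Values after ± are the log2 fold change over the root of its F statistic. For large changes from few counts they can be smaller than counting error and are no full standard error. For Reg3b, with 7 and 1 untreated WT counts, the value was 0.16 for the WT change and 0.51 for the interaction. Over the 8 libraries, 3 counts corresponded to between 0.150 and 0.191 CPM. Bounds use a floor of 3 counts over the group, and intervals are exact at 95%. Both cover counting error only. Coordinates are from GENCODE M21, which held 94.8% of the deposited identifiers with their version, and genes without such a match are given no position. Promoter windows are from RefSeq (GRCm38.p6).

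The genes and the 44 lists were chosen with earlier results of these data known. The naming rule took the 10 largest rises and 10 largest falls past the threshold with groups that did not overlap and a mean of 5 CPM or more, leaving out unnamed gene models, pseudogenes, ribosomal protein, antigen receptor and haemoglobin genes. From each list it took at most 2 called or leading members, ranked by p, and it always took Rora, Il1b, Tnf, Il6, Cxcl1, Nfkbia, Lgr5, Mki67, Krt20, Muc2, Reg3b, Reg3g, Saa3, Nos2 and Duox2. Some genes it names are not given. Other list members are examples chosen after their values were seen, as were the motifs and the promoters printed.

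Alternatives were other scaling factors, effective-length offsets, other filters, DESeq2 1.42.0, the WT libraries alone, a replicate block and leaving out each library. Same-numbered libraries were compared by the correlation of their deviations from the group means.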

Additional observations from a re-analysis of the deposited data

Results flagged for a closer look

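The genes below had DSS changes that differed between KO and WT by a test of the difference itself, the interaction term of edgeR's quasi-likelihood test adjusted over all genes. Values are the log2 change by DSS in KO minus that in WT. Among genes that rose in WT, the change in KO was larger for Saa3 (5.31), Il1b (3.30), Nos2 (2.31), Tnf (2.24), Clca4b (1.70), Cnn2 (0.99), Fbln1 (0.82), Duox2 (0.53) and Plet1 (0.31). It was smaller for Reg3b (-3.28), Reg3g (-1.27), Ccl9 (-0.60) and Krt20 (-0.33). Untreated counts were few for Reg3b (7 and 1 in WT, 16 and 29 in KO) and Reg3g (10 and 8 in WT, 11 and 14 in KO). They were also few for Saa3, Il1b and Tnf, so the sizes of these differences are uncertain. Among genes that fell in WT, the fall in KO was smaller for Srp54a (3.42), St8sia5 (1.50), S100g (1.40), Dusp1 (1.06), Fxyd4 (0.58) and Atp12a (0.24). It was larger for Prss23 (-1.81), Muc2 (-1.01) and Ang4 (-0.62). Nfkbia fell in WT and rose in KO, with a difference of 1.01.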

How the results depend on the processing

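Changed genes numbered 3409 with DESeq2's Wald test (1808 higher and 1601 lower, 342 and 178 of them at least 2-fold), against 5573 with edgeR. A minimum mean of 5 CPM left 124 and 94 genes at least 2-fold higher and lower. Interactions numbered 1794 with effective-length offsets and 1684 with DESeq2, against 3208. Leaving out 1 library at a time gave from 3659 to 6426 changed genes, 1867 to 3203 rises, 1791 to 3223 falls, 400 to 543 and 233 to 301 genes at least 2-fold higher and lower, and 1891 to 4444 interactions. With the replicate block, 2769 genes rose and 2680 fell. The correlations of same-numbered libraries ran from -0.11, for untreated and DSS-treated WT, to 0.077. They show no pairing by number, but with 2 libraries per group they cannot exclude it. The crossed block, added after the data were seen, gave 2642 rises and 2544 falls. With effective-length offsets, 3791 of the 5573 main calls were kept and 36 changed sign. Cenpf was among the 36, its rise of 0.41 becoming -0.19. The cause of these shifts was not tested. Of all alternatives for single named genes, 1737 were counted as unchanged, 26 lost the call and 1 gained it. For genes not called in the main fit, a change of sign was also counted as unchanged. List medians were less stable: over the alternatives, 132 moved by more than the spread between replicates and 613 did not. Depth limited genes with few untreated counts to bounds and wide intervals.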
